A study of Mus musculus with 12 samples.

Results

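The activation response of control CD8 T cells was taken from 6 of the 12 arrays of the series, the 3 of quiescent WT cells (T0) and the 3 of WT cells activated for 6 h (T6), over 34945 of 45101 probe sets, those that carried 1 gene symbol. These probe sets mapped to 18193 genes, of which 13158 passed the filter on low signal and were tested. The cells came from the spleens of male mice and were purified with a CD8 T cell enrichment kit. WT stands for the Cd4-Cre/Scap+/+ genotype, littermate controls whose Scap genes are intact, and KO for Cd4-Cre/Scapfl/fl, in which the floxed gene is deleted in T cells. All 4 groups of 3 arrays (WT and KO, each at T0 and T6) therefore carried the Cd4-Cre transgene, whose Cre recombinase is under the Cd4 promoter, active from an early thymic stage in all alpha-beta T cells. Activation was by plate-bound anti-CD3 with soluble anti-CD28, antibodies that engage the T cell receptor complex and the costimulatory receptor. PolyA RNA was labelled with biotin and hybridised to Affymetrix mouse arrays. No age is given for the mice. No group of cells cultured for 6 h without the antibodies is among the 4, so culture time and antibody engagement cannot be told apart. The design text counts 3 mice of each genotype without telling which arrays come from the same animal, so the p-values measure the spread between these arrays.

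A CD8 T cell that has not met antigen is a small resting cell held back by transcription factors and phosphatases. Engagement of its receptor together with CD28 opens calcium, MAP kinase and NF-kB signalling, which first switches on immediate early transcription factors and then cytokines, cytokine receptors and the enzymes and ribosomes needed for growth. DNA replication and division follow later.

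Levels below are log2(signal + 16) of a gene's probe set, given in the order of replicates 1, 2 and 3. A change is the T6 mean minus the T0 mean on that scale, with its standard error (SE) from the limma fit over all 12 arrays. A gene is said to have risen or fallen where its Benjamini-Hochberg adjusted p over the 13158 genes was under 0.05. Each call was repeated under 22 alternatives (other settings, or 1 array left out), and the number that also made it is given where it was not all of them. Signals near percentile 40 of an array, which was 5.64 to 5.87, are treated as near background.

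The 3 quiescent arrays correlated with each other at 0.974 to 0.978, the 3 activated arrays at 0.975 to 0.977, and arrays of unlike state at 0.957 to 0.965. Median signals were 73.7 to 74.9 at T0 and 61.3 to 71.1 at T6. All 8 measured T cell identity markers, Cd8a and Cd8b1 among them, lay above percentile 40 on every T0 array. Cd4 lay under it on all 6 arrays, as did Ncr1 of NK cells and Pax5 of B cells. Each was the only member of its marker list to do so. Of 12 measured B cell markers 7 lay above percentile 40 on every T0 array, against 0 of 4 CD4 T cell and 0 of 2 NK cell markers. Macrophage markers were measured at T0 and fell at T6, as described with the other cells below. As a sign of RNA quality, Actb control probe sets at the 3′ end exceeded those at the 5′ end by 0.33, 0.22 and 0.37 at T0 and 0.52, 0.45 and 0.54 at T6 (exact permutation p = 0.1, two-sided, the smallest that 3 against 3 arrays allow), and those of Gapdh by 0.04 to 0.09 at T0 and 0.08 to 0.17 at T6 (p = 0.2). The part of this difference in the results was not tested.

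On activation 3302 genes changed, which is 25.1% of those tested. Of these, 1492 rose (11.3%) and 1810 fell (13.8%). The counts of list members below stand beside these shares, and a list near them moved like the tested genes as a whole. At least 2-fold rises numbered 352 (2.68%) and at least 2-fold falls 599 (4.55%). Small changes made up most of the rises: 472 were under 0.5 and 668 between 0.5 and 1 on the log2 scale, against 260 between 1 and 2 and 92 of 2 or more. For the falls these numbers were 384, 827, 487 and 112. The split between the directions depends on the centring of the arrays: the median change of all genes was -0.06, and centring each array on its median shifted it by 0.12, with which 1907 genes rose and 1141 fell. Arrays of the 2 states did not overlap for 5627 genes (42.8%) and for 3276 of the 3302 that changed.

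**Figure D1:**
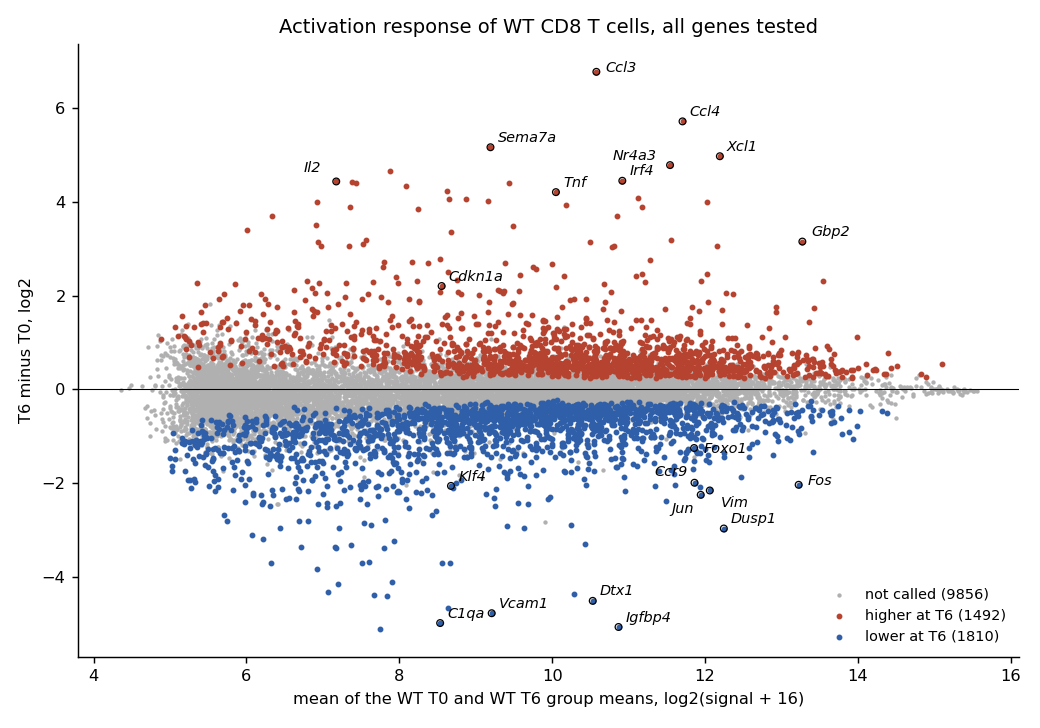
Change on activation (T6 minus T0, log2, vertical axis) against the mean level over both states (log2(signal + 16), horizontal axis) for the 13158 genes tested in WT cells, with 1492 that rose in red, 1810 that fell in blue and 9856 not called in grey. Ccl3, Ccl4 and Xcl1 lie at the top and Igfbp4, C1qa and Vcam1 at the bottom.

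Families of immediate early factors differed at 6 h, the only time after activation that was measured. Egr and Nr4a factors were high at T6, whereas most AP-1 genes were lower at T6 than at T0. Egr2, a zinc finger factor induced by receptor signalling, was 8.91, 9.14 and 8.96 at T0 and 12.70, 12.69 and 12.69 at T6. It rose by 3.69 (SE 0.15, adjusted p = 2.9e-07), and the arrays of each state lay close together and far from those of the other. Egr3 rose by 2.77 on its tested probe set, but its other probe set gave -0.05, so its probe sets disagree. Egr1 rose by 1.43, Egr4 by 1.09 and Nab2, a corepressor of Egr factors, by 0.93, called in 18 of 22 alternatives. Of the 6 Egr and Nab genes, 5 rose and 1 fell (Nab1, -0.37, called in 15 of 22 alternatives).

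All 3 Nr4a genes rose. They encode orphan nuclear receptors that respond to calcium signals. Nr4a3 was 9.30, 9.07 and 9.08 at T0 and 14.16, 13.90 and 13.74 at T6, a rise of 4.79 (SE 0.15, adjusted p = 8.2e-08). All T6 arrays were above all T0 arrays. Nr4a1 rose by 3.06 and Nr4a2 by 3.19. Other probe sets gave 1.35 for Nr4a3 and 0.05 to 3.54 for Nr4a2.

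AP-1 is a dimer of Fos and Jun proteins. Fos was 14.09, 14.25 and 14.38 at T0 and 12.50, 12.33 and 11.79 at T6. It fell by 2.03 (SE 0.18, adjusted p = 4.1e-05), with all activated arrays under all quiescent ones. Jun was 13.00, 13.08 and 13.12 at T0 and 11.32, 10.85 and 10.29 at T6 and fell by 2.25 (SE 0.29, adjusted p = 0.00046), with -1.16 on its other probe set that passed the filter. Both Fos and Jun were already high at T0, where the median level of all genes tested was 8.98 over the 12 arrays. Junb fell by 2.04, Fosb fell by 1.26 and Jund fell by 0.80, and the related Batf and Batf3, which pair with Jun proteins, fell (-1.03 and -1.15). The Fos-related pair moved the other way. Fosl1 was 6.15, 5.33 and 4.23 at T0 and 9.67, 9.59 and 9.67 at T6, a rise of 4.41 (SE 0.40, adjusted p = 4.9e-05) from a level near background, with 1.65 on its other probe set. Fosl2 rose by 2.60, with 1.0 on its other. In all, 2 of the 12 genes of this list rose and 7 fell, with a median of -0.91 against -0.06 over all genes tested.

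**Figure D2:**
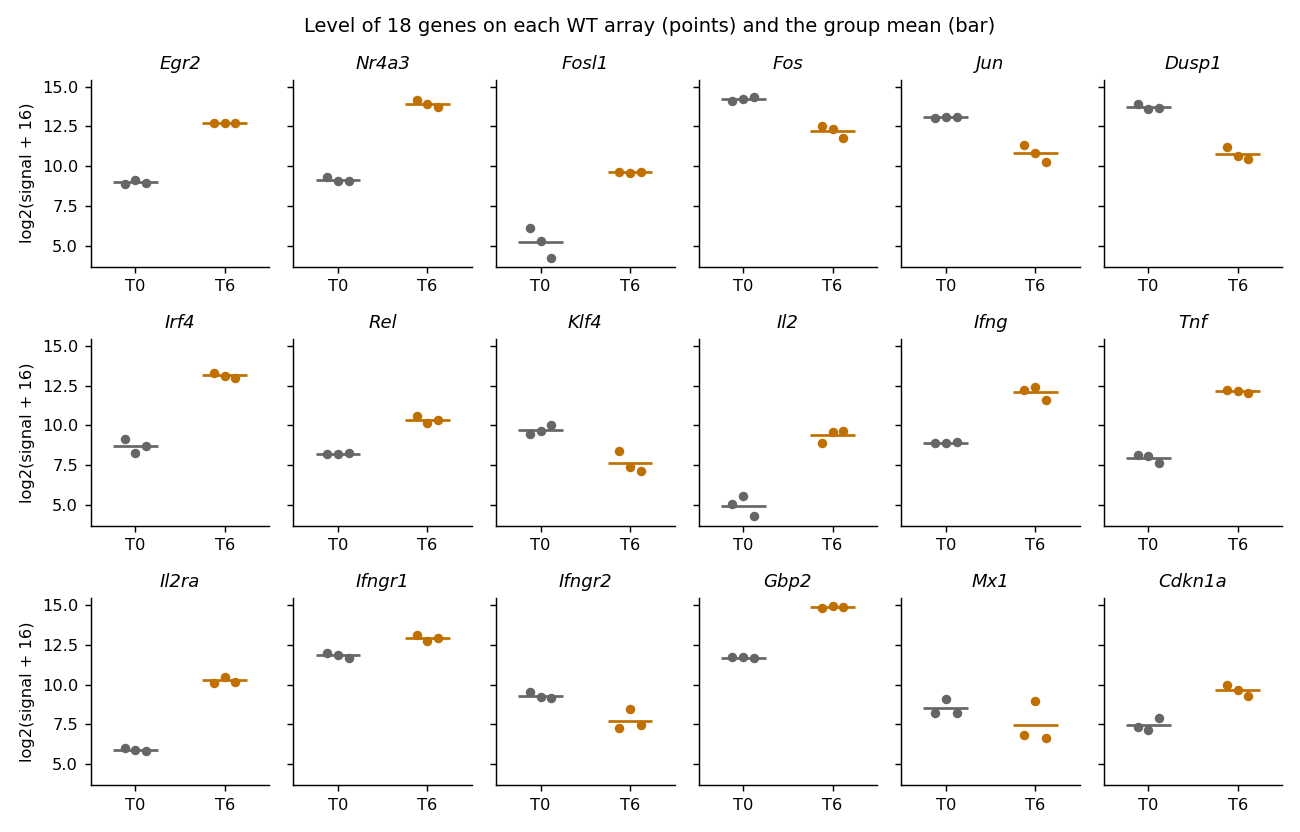
Level (log2(signal + 16), vertical axis) of 18 genes on each of the 3 T0 arrays (grey points) and 3 T6 arrays (orange points) of WT cells, with the mean of each state as a bar. Fos, Jun, Dusp1, Klf4 and Ifngr2 lie lower at T6, the points of Mx1 overlap between the states, and those of the other 12 genes lie higher at T6.

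NF-kB genes rose in part. Rel, a subunit central to T cell activation, was 8.21, 8.18 and 8.29 at T0 and 10.57, 10.15 and 10.36 at T6. This was a rise of 2.13 (SE 0.15, adjusted p = 1.2e-05), with no overlap between the states. Nfkb2 rose by 1.84 (0.76 on its other probe set) and Relb by 1.40. Nfkbid and Nfkbib, of the gene family named for inhibitors of NF-kB, rose by 1.75 and 1.01, the latter called in 21 of 22 alternatives. Nfkbiz, an atypical member of that family, fell by 0.94, and Nfkbia was at -0.06. Of 14 genes 6 rose, 1 fell and 7 were not called. Tnfaip3, which encodes the ubiquitin-editing inhibitor A20, was not called on its tested probe set (-0.63), while its other probe set fell (-1.41).

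Genes that shape calcium and MAP kinase signals did not share a direction. Orai1, the pore subunit of the calcium release-activated channel, was 9.69, 9.67 and 9.69 at T0 and 11.36, 11.13 and 11.14 at T6, a rise of 1.53 (SE 0.14, adjusted p = 4.9e-05). Its relative Orai2 fell by 0.98. Of 13 calcium, calcineurin and NFAT genes 3 rose and 3 fell. Among MAP kinase feedback genes, Spry1, an inhibitor of receptor signalling to Ras, was 8.44, 8.18 and 8.02 at T0 and 12.22, 12.10 and 12.14 at T6 and rose by 3.94 (SE 0.19, adjusted p = 1e-06). The phosphatase gene Dusp4 rose by 2.07. Another phosphatase gene of the family, Dusp1, was 13.92, 13.60 and 13.67 at T0 and 11.18, 10.66 and 10.45 at T6 and fell by 2.96 (SE 0.20, adjusted p = 9.2e-06). For all 3 genes the states did not overlap. Of 14 genes in this list 5 rose and 2 fell. For MAP kinase feedback the count of rises was 3 without WT T0 replicate 2 or WT T6 replicate 2. Among 8 regulators of G protein signalling, Rgs16 rose by 4.41, and 4 fell (Rgs2 fell by 1.37, Rgs18 fell by 1.19 (called in 21 of 22 alternatives), Rgs14 fell by 1.17 and Rgs10 fell by 0.87).

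Factors of effector and memory fate rose more often than they fell, with 9 of 17 higher and 5 lower. Irf4, a factor whose amount follows the strength of receptor signalling, was 9.13, 8.25 and 8.70 at T0 and 13.32, 13.11 and 12.99 at T6. It rose by 4.45 (SE 0.24, adjusted p = 1.9e-06), and by 1.72 on its other probe set. Irf8 rose by 2.29, Bhlhe40 by 1.58, Bcl6 by 1.40 and Tbx21, which encodes T-bet, by 1.13. Myc, the driver of growth, was 11.86, 11.89 and 11.83 at T0 and 13.29, 13.24 and 13.19 at T6, a rise of 1.38 (SE 0.13, adjusted p = 5.5e-05). Of 10 genes of the Myc network 1 rose (Myc itself) and 2 fell, against 11.3% and 13.8% over all genes tested. The count of rises was 2 in several alternatives, among them quantile normalization, median centring and the filter at percentile 60. The count of falls was 1 with median centring, in a fit over the 6 WT arrays or without WT T0 replicate 1 or WT T6 replicate 3. Id2, an inhibitor of E proteins, fell by 1.35. For effector and memory factors the count of falls was 2 with median centring or without WT T0 replicate 1, and 3 without WT T0 replicate 2 or WT T6 replicate 1, 2 or 3.

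Among 11 factors of naive cells, Foxo1, which keeps homing receptor genes on, was 12.65, 12.40 and 12.40 at T0 and 11.16, 11.21 and 11.33 at T6 and fell by 1.25 (SE 0.11, adjusted p = 5.4e-05), with separate states. Lef1 fell by 0.67. Bach2, a repressor that holds cells back from effector fate, rose by 1.09. In this list 1 gene rose and 4 fell. For naive factors the count of falls was 2 with median centring or without WT T0 replicate 2 or 3 or WT T6 replicate 2. Krüppel-like factors fell in 6 of 11 cases and rose in 1. Klf4 was 9.43, 9.66 and 10.02 at T0 and 8.38, 7.41 and 7.16 at T6, and it fell by 2.06 (SE 0.28, adjusted p = 0.00064), the largest fall of that list. Klf11 fell by 1.03 and Klf6 fell by 0.87. Klf2, which sustains S1pr1 expression, fell by 0.61, called in 18 of 22 alternatives. For Krüppel-like factors the count of falls was 3 with median centring or without WT T6 replicate 1 or 2.

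Of 19 quiescence genes 3 rose and 6 fell. Ddit4, an inhibitor of mTORC1, fell by 1.15, and Dgka, which removes diacylglycerol, and the antiproliferative Tob1 fell (-0.71 and -0.72). The schlafen genes Slfn1 and Slfn2 rose by 1.04 and 0.79. In the Notch pathway, Dtx1, an E3 ligase gene linked to anergy, was 12.92, 12.66 and 12.78 at T0 and 7.78, 8.71 and 8.34 at T6. It fell by 4.51 (SE 0.21, adjusted p = 9.2e-07), and its other probe set gave -0.97. Hes1, a repressor induced by Notch, fell by 1.43, whereas Rbpj, the DNA-binding partner of Notch, rose by 0.70. Of the 13 genes 2 rose and 5 fell.

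Genes of secreted proteins were among the largest rises. Of 11 chemokine genes 7 rose and 2 fell (median 2.50), and of 25 genes of cytokines and TNF ligands 15 rose and 3 fell (median 1.37). Ccl3, a chemokine that attracts leukocytes to inflamed tissue, was 7.25, 7.22 and 7.11 at T0 and 14.10, 14.02 and 13.78 at T6. Its rise was 6.77 (SE 0.28, adjusted p = 3.6e-07). Ccl4 was 9.01, 8.52 and 9.01 at T0 and 14.60, 14.54 and 14.55 at T6 and Xcl1, which attracts cross-presenting dendritic cells, was 9.88, 9.96 and 9.28 at T0 and 14.65, 14.58 and 14.81 at T6. For each of these the lowest T6 array lay far above the highest T0 array. Ccl1 rose by 4.66, Cxcl9 by 2.50 (3.10 without WT T6 replicate 3) and Ccl9 by 2.40. Ccl5, a chemokine of memory cells, fell by 0.95, called in 18 of 22 alternatives, and Ccl6 fell by 1.81.

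Among cytokines, Ifng was 8.91, 8.89 and 8.97 at T0 and 12.22, 12.38 and 11.61 at T6, a rise of 3.14 (SE 0.22, adjusted p = 1.1e-05). Tnf was 8.13, 8.09 and 7.62 at T0 and 12.24, 12.19 and 12.03 at T6, a rise of 4.21 (SE 0.23, adjusted p = 2e-06). Il2, the growth factor of T cells, was 5.05, 5.54 and 4.28 at T0 and 8.92, 9.61 and 9.65 at T6 and rose by 4.44 (SE 0.34, adjusted p = 1.9e-05). Its T0 arrays lay near background, so the size of this rise depends on the added constant, at 5.59 with 1 and 3.17 with 64. The same holds for Il3 (3.39, from 1.93 to 5.37) and Il4 (3.89, from 2.92 to 4.51, and 3.07 without WT T6 replicate 1). Csf2 (GM-CSF) rose by 3.05, Lta (lymphotoxin) by 2.57, Lif by 2.16 and Fasl, the death ligand, by 1.50. The TNF family ligands Tnfsf14 (LIGHT) and Tnfsf11 (RANKL) rose by 4.07 and 4.06. Il17a rose by 2.31 (2.91 without WT T6 replicate 3). Il16, whose protein binds CD4, and Tnfsf10 (TRAIL) fell (-0.50, called in 17 of 22 alternatives, and -0.80). Il10 stood at -0.02 and Tgfb1 at 0.29, neither called.

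The promoters of 3 of these strongly induced genes are shown because each holds a TATA box, TATAAA, shortly before the gene's start. They are RefSeq windows of assembly GRCm38.p6, from 250 bases before to 50 bases after the start, read on the gene's strand, with the match in capitals. The window of Il2 is chr3:37125905-37126204 (minus strand), that of Tnf chr17:35201958-35202257 (minus strand) and that of Irf4 chr13:30748983-30749282 (plus strand). The match begins 31 bases before the start of Il2, 29 before that of Tnf and 26 before that of Irf4.
Il2: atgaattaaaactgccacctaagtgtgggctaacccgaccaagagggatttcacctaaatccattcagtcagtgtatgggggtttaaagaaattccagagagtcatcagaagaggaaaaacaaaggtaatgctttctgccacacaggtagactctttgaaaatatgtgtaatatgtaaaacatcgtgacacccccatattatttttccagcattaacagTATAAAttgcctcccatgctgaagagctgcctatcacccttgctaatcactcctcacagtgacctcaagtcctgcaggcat
Tnf: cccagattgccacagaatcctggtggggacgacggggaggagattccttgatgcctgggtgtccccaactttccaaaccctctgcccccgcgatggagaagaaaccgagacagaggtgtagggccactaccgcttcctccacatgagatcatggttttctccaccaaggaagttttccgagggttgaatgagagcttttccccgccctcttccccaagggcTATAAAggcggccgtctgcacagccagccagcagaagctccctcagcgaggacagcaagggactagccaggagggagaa
Irf4: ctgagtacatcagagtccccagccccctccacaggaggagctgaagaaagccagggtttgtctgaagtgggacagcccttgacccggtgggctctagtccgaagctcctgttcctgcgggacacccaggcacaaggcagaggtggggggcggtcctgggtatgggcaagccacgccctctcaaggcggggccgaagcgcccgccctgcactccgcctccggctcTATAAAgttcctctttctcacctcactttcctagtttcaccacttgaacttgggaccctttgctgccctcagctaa

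Windows were found for 10631 of the 13158 genes (80.8%), by symbol, with the first listed window where a gene had several. TATAAA on either strand was in 20.5% of the windows of genes that rose at least 4-fold (16 of 78), in 9.18% of those that rose 2- to 4-fold, in 7.0% of those that rose less and in 7.92% over all genes tested. Among falls it was in 13.8% of the windows at 4-fold or more and in 4.8% of those under 2-fold. In the whole table of 32851 windows 13.6% held it. The AP-1 motif TGANTCA was in 14.1% of the windows of rises of at least 4-fold and 5.44% over all genes tested, and the NF-kB motif, searched by its usual degenerate form of 10 letters, in 10.3% and 4.98%. CCGGAAG, a motif of the ETS family, ran the other way, with 2.56% at rises of at least 4-fold, 26.2% at rises under 2-fold and 17.3% over all. The E-box CACGTG was in 3.85%, 14.2% and 9.94%. Windows also differed in CG dinucleotides: the median count was 11 for rises of at least 4-fold and 23 for rises under 2-fold, 8 and 20 for falls of these sizes, and 20 over all. TGACGTCA, bound by CREB and ATF factors, was in 1.28% of the windows of rises of at least 4-fold and 3.11% over all, and GGGCGG, the GC box, in 55.1% and 61.5%. At falls of at least 4-fold the shares were 9.2% for AP-1, 8.05% for NF-kB, 2.3% for CCGGAAG and 6.9% for CACGTG. They were 2.3% for TGACGTCA and 43.7% for GGGCGG. Each lay on the same side of the share over all genes as at rises of that size. All motifs were searched on both strands, and none contains the letters of another. A match describes the letters of a window and not a bound site, and no test was made of these shares.

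Receptors for the secreted proteins split in the same families. Il2ra, the subunit that makes the IL-2 receptor high in affinity, was 6.04, 5.90 and 5.81 at T0 and 10.12, 10.49 and 10.19 at T6. It rose by 4.35 (SE 0.17, adjusted p = 2.9e-07). Il12rb1 and Il15ra rose by 1.59 and 1.62. The interferon gamma receptor subunits moved apart: Ifngr1 was 11.98, 11.87 and 11.67 at T0 and 13.11, 12.76 and 12.92 at T6 and rose by 1.09 (SE 0.15, adjusted p = 0.00055), whereas Ifngr2 was 9.55, 9.24 and 9.14 at T0 and 7.27, 8.48 and 7.43 at T6 and fell by 1.59 (SE 0.37, adjusted p = 0.011). The states did not overlap for either subunit, though the other probe set of Ifngr2 gave -0.30. Il6ra fell by 1.43, Tgfbr3 fell by 1.82, Il27ra fell by 1.15 and Il18r1 fell by 0.95, and Il7r, the survival receptor of naive cells, stood at 0.02. Of 23 cytokine receptor genes 4 rose and 9 fell. Of 12 TNF receptor genes 2 rose (16.7%) and 1 fell (8.33%). Tnfrsf9 (4-1BB) was at 3.88 (-0.19 to 4.94 on its other probe sets), Tnfrsf1b at 0.92 and Tnfrsf1a at -0.66.

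Downstream of these receptors, the feedback inhibitor Socs1 was 7.54, 7.53 and 7.70 at T0 and 10.18, 9.93 and 9.66 at T6, a rise of 2.33 (SE 0.14, adjusted p = 4.7e-06). Cish, another inhibitor of the family, rose by 2.09. Socs3 fell by 0.55, called in 18 of 22 alternatives. Among the kinases Pim1 rose by 1.24 and Jak2 by 0.85, while Jak3, which serves the IL-2 receptor, fell by 0.90, called in 21 of 22 alternatives. Stat5a rose by 0.69 and Stat5b stood at 0.25, not called. In this list 8 of 21 genes rose and 3 fell.

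Inhibitory and costimulatory receptors included rises and falls. Pdcd1, which encodes PD-1, was 7.17, 7.19 and 6.62 at T0 and 10.69, 10.12 and 10.23 at T6. This was a rise of 3.36 (SE 0.33, adjusted p = 8e-05), and its ligand genes Cd274 and Pdcd1lg2 rose by 3.07 and 2.72. Ctla4, a brake that competes with CD28, was 11.13, 10.43 and 10.61 at T0 and 9.56, 9.78 and 9.74 at T6 and fell by 1.03 (SE 0.27, adjusted p = 0.018), called in 20 of 22 alternatives. Slamf1 rose by 3.03, Crtam by 2.45, Cd160 by 2.42, Cd200 by 2.19, Icos by 1.48 and Cd83 by 1.46. Cd244a (2B4) fell by 2.24, Cd226 fell by 1.31, Entpd1 (CD39) fell by 1.39 and Cd48 fell by 1.02. Cd69, the classical surface marker of activation, was 12.33, 12.63 and 12.44 at T0 and 12.73, 12.75 and 12.65 at T6: it was already high at T0 and its change of 0.24 was not called. Lag3 and Havcr2 were not called either (0.43 and 0.24). In total 11 of 27 genes rose and 6 fell.

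Interferon response genes rose in 12 of 31 cases and fell in 0. Most of the rises were of GTPases induced by interferon gamma, which attack vacuoles of intracellular pathogens. The 9 listed genes placed in that group all rose, with a median of 2.26, and 3 of the other 22 genes rose, with a median of 0.34. This division was made after the values were seen, with Mx1, also a GTPase, among the other 22. The counts describe the division and do not test it. Gbp2 was 11.71, 11.73 and 11.64 at T0 and 14.79, 14.90 and 14.86 at T6, a rise of 3.15 (SE 0.10, adjusted p = 9.2e-08). Iigp1 was 8.62, 10.15 and 8.50 at T0 and 12.79, 13.12 and 13.60 at T6, a rise of 4.08 (SE 0.41, adjusted p = 0.0001). Each T6 array was above each T0 array for both. Igtp rose by 2.32, Irgm2 by 2.46, Gbp3 by 2.26, Gbp6 by 2.04, Irgm1 by 1.86, Gbp7 by 1.65 and Ifi47 by 1.13. The other rises were those of Irf1 (0.65), Zbp1 (1.21) and Oasl2 (1.58, called in 13 of 22 alternatives). Oasl2 and Zbp1 are also induced by type I interferon. The other 19 genes were not called, among them these examples, picked with their values in view. Mx1, an antiviral GTPase, was 8.22, 9.08 and 8.19 at T0 and 6.80, 8.96 and 6.65 at T6, with overlapping states and a change of -1.03, but it was called lower without WT T6 replicate 2 (-1.77, adjusted p = 0.0078 in limma), the only setting with a fall in the list. Ifit1 stood at 0.88 and at 0.10 without the same array, and Rsad2 at 0.38 and at -0.31 without WT T0 replicate 3. Oas2 stood at -0.61 and Irf7 at 0.34. Cxcl10, a chemokine induced by interferons and counted among the chemokines, was 7.46, 7.23 and 6.76 at T0 and 11.38, 11.69 and 10.45 at T6, a rise of 4.02 (SE 0.28, adjusted p = 1.1e-05).

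Windows of 4 of the genes that rose are shown because each holds GAAANNGAAA, a form of the element bound by interferon regulatory factors, on either strand. The window of Gbp2 is chr3:142620413-142620712 (plus strand), that of Igtp chr11:58199306-58199605 (plus strand), that of Irgm2 chr11:58214727-58215026 (plus strand) and that of Cxcl10 chr5:92348840-92349139 (minus strand). Matches are in capitals and begin 59, 34, 64 and 213 bases before the start. The windows of Igtp and Irgm2, which lie on the same chromosome, hold the same letters at the match. They also share long stretches on both sides of it, so they are not independent instances of the motif.
Gbp2: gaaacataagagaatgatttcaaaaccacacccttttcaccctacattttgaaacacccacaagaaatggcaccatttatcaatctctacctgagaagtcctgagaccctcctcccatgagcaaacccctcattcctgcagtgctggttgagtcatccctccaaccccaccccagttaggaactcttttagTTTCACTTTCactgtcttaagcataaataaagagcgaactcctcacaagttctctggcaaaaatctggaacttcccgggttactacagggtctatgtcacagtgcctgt
Igtp: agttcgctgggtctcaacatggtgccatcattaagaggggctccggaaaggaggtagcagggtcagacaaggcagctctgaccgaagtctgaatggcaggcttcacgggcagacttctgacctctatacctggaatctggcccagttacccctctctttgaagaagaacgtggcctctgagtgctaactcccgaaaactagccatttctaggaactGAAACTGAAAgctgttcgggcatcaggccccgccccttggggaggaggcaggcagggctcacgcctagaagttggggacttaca
Irgm2: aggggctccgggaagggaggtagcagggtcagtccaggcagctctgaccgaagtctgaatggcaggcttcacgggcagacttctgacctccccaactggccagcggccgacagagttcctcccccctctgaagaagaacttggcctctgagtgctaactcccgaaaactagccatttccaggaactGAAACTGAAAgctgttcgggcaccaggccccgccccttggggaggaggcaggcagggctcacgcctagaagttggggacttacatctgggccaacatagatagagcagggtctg
Cxcl10: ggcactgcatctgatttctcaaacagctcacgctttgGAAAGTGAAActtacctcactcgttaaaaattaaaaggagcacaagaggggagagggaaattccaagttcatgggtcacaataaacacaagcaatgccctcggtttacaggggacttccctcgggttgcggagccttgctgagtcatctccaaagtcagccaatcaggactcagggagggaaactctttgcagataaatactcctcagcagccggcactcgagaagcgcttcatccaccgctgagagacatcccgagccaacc

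The motif was in 6 of the 7 GTPase windows found, the similar ones of Igtp and Irgm2 among them. It was in 10.3% of windows of rises of at least 4-fold and in 8.05% of those of falls of at least 4-fold. Over all genes tested 3.09% of windows held it, and 3.44% of the whole table. Genes that present antigen on MHC class I rose in 4 of 11 cases, with the transporter genes Tap2 at 0.73 and Tap1 at 0.51 (called in 14 of 22 alternatives, and -0.32 on its other probe set). The class I genes themselves stood at 0.01 (H2-K1) and 0.03 (H2-D1), neither called, and B2m at 0.13. For class I presentation the count of rises was 2 with quantile normalization, with no filter on low values, with probe sets averaged per gene, in a fit over the 6 WT arrays or without WT T0 replicate 1 or 3 or WT T6 replicate 2 or 3.

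Transcripts of the engaged receptor and of the proteins around it fell in part. Of 8 genes listed for the T cell receptor complex, with coreceptors and other T cell surface proteins, 5 fell and 0 rose (median -0.43). Thy1, a surface glycoprotein outside the complex itself, was 14.19, 14.06 and 13.96 at T0 and 12.70, 12.63 and 12.90 at T6. It fell by 1.32 (SE 0.13, adjusted p = 9.7e-05). Cd8b1 was 14.55, 14.33 and 14.28 at T0 and 13.41, 13.60 and 13.78 at T6 and fell by 0.79 (SE 0.13, adjusted p = 0.0014). Cd8a fell by 0.43, called in 15 of 22 alternatives, and Cd3g fell by 0.55, called in 21 of 22 alternatives. Cd3e and Cd3d stood at -0.33 and -0.30, not called, and Cd247 (CD3 zeta) at 0.03. For the receptor complex list the count of falls was 2 with median centring, and 3 without WT T0 replicate 1 or WT T6 replicate 2. In bulk samples, fewer cells of a type and less RNA per cell cannot be told apart. Of 32 genes of proximal signalling 3 rose and 11 fell. Sit1, an adaptor that restrains the receptor, was 10.65, 10.40 and 10.13 at T0 and 8.08, 8.03 and 8.13 at T6 and fell by 2.31 (SE 0.18, adjusted p = 2e-05). Themis fell by 1.30, Pag1, which anchors the inhibitory kinase Csk, fell by 1.21 and Csk fell by 0.77. The phosphatase gene Ptpn6 (SHP-1) fell by 0.92, whereas Ptpn22 rose by 0.75. Zap70 and Lat stood at 0.37 and -0.45, not called.

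Genes of homing and adhesion fell more often than they rose. Of 15 homing and chemokine receptor genes 6 fell and 1 rose, and of 11 integrin genes 6 fell and 1 rose (median -0.77, and -0.29 with no filter on low values). Ccr9, a gut-homing receptor, was 13.00, 12.78 and 12.79 at T0 and 10.51, 10.98 and 11.11 at T6 and fell by 1.99 (SE 0.27, adjusted p = 0.00057). S1pr1, which leads cells out of lymphoid organs, was 12.38, 12.03 and 11.96 at T0 and 10.65, 11.14 and 11.33 at T6 and fell by 1.09 (SE 0.20, adjusted p = 0.003). Cxcr4 fell by 1.01 and Ccr7, the lymph node receptor, fell by 0.49, called in 16 of 22 alternatives. The states did not overlap for Ccr9 and S1pr1. Itgae (CD103) fell by 2.07, its partner Itgb7 fell by 1.80 and the LFA-1 subunits Itgal and Itgb2 fell by 0.77 and 0.95, while Itgav rose by 0.93. Semaphorins and plexins, guidance ligands and receptors that also act on immune cells, moved strongly in both directions. Sema7a, which is anchored in the membrane by a lipid, was 6.89, 6.59 and 6.35 at T0 and 11.91, 11.61 and 11.80 at T6, a rise of 5.17 (SE 0.23, adjusted p = 5.4e-07), against 2.08 on its other probe set. Sema4a was 11.75, 11.72 and 11.63 at T0 and 8.63, 8.85 and 8.92 at T6 and fell by 2.90 (SE 0.15, adjusted p = 1.9e-06). Sema4d fell by 0.90 and Sema4b fell by 1.27. Of 12 genes 2 rose and 8 fell.

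Of 16 cytotoxic effector genes 5 rose and 3 fell, and the main effector molecules were not called. Gzmb (granzyme B) was 8.88, 9.19 and 9.15 at T0 and 9.34, 10.02 and 9.27 at T6, with each T6 array a little above each T0 array and a change of 0.47 that was not called. Prf1 (perforin) stood at 0.20. Serpinb9, which protects cells from their own granzyme B, rose by 2.07. Nkg7 fell by 1.35 and Ctsw fell by 1.40. For cytotoxic genes the count of rises was 3 in a fit over the 6 WT arrays or without WT T6 replicate 1. Genes typical of memory-phenotype cells fell in 7 of 11 cases and rose in 0 (median -1.22, and -0.70 with probe sets averaged per gene). Vim (vimentin) was 13.26, 13.12 and 13.03 at T0 and 10.98, 11.11 and 10.87 at T6 and fell by 2.15 (SE 0.19, adjusted p = 4e-05), and Lgals1 fell by 1.22. For memory-phenotype genes the count of falls was 3 without WT T0 replicate 1, and 4 without WT T0 replicate 3. In the Bcl2 family, Bcl2l11, which encodes the death protein Bim, rose by 1.40. Of the 17 genes of that list 1 rose (5.88%) and 4 fell (23.5%), against 11.3% and 13.8% over all genes tested. The count of rises was 2 in several alternatives, among them quantile normalization, median centring and probe sets averaged per gene. For the Bcl2 family and caspases the count of falls was 2 with median centring or without WT T6 replicate 2. Bcl2 and Mcl1 stood at -0.56 and -0.16, not called.

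Metabolic genes rose in several lists. Slc7a5, a subunit of the large neutral amino acid transporter, was 10.46, 10.61 and 10.79 at T0 and 12.32, 12.31 and 12.37 at T6. It rose by 1.72, its partner Slc3a2 by 0.83, Slc7a1 by 1.69 and the glutamine transporter Slc1a5 by 1.01. In that list 7 of 17 genes rose and 2 fell. Bcat1, which starts the breakdown of branched-chain amino acids, was 6.45, 6.58 and 6.51 at T0 and 10.76, 10.57 and 10.88 at T6, a rise of 4.22 (SE 0.16, adjusted p = 2.3e-07). The serine and one-carbon list had 6 rises among 13 genes and 0 falls; Mthfd2, a mitochondrial folate enzyme, rose by 1.68, Shmt1 by 2.67 and Psat1 by 1.48. Of 11 polyamine genes 6 rose and 0 fell: Odc1, the entry enzyme, rose by 1.12 and Srm (spermidine synthase) by 1.39. For polyamines the count of rises was 3 without WT T0 replicate 1 or 3 or WT T6 replicate 1, 2 or 3. Of 20 purine and pyrimidine genes 10 rose and 2 fell, with Ctps at 1.11. For purines and pyrimidines the count of rises was 6 with probe sets averaged per gene, and 5 without WT T6 replicate 1.

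In glycolysis 7 of 19 genes rose and 3 fell. Hk2, an inducible hexokinase, was 8.67, 8.0 and 8.32 at T0 and 10.60, 10.33 and 10.21 at T6, a rise of 2.06 (SE 0.19, adjusted p = 5.7e-05). Pgam1 rose by 1.08 and Aldoa by 0.70 (-0.13 to 0.77 on its other probe sets). The glucose transporter genes did not rise: Slc2a1 stood at 0.15 and Slc2a3 fell by 0.90. For glycolysis the count of rises was 4 with probe sets averaged per gene. Cholesterol synthesis genes, the targets of the SREBP factors that Scap escorts, rose in 9 of 17 cases and fell in 2 (Mvd and Dhcr7, each called in 17 of 22 alternatives). Cyp51 was 8.47, 8.13 and 8.18 at T0 and 10.41, 10.25 and 10.44 at T6, a rise of 2.10 (SE 0.18, adjusted p = 3.7e-05). Sqle rose by 1.32 and Fdps by 1.24. Scap itself was 11.53, 11.03 and 11.23 at T0 and 11.56, 11.55 and 11.60 at T6, with a change of 0.31 that was not called. Of 15 fatty acid synthesis genes 4 rose and 4 fell, with Fasn at 1.07 and Scd2 at -1.57. For fatty acid synthesis the count of falls was 2 without WT T0 replicate 3 or WT T6 replicate 1 or 3. Of 9 LXR targets 5 fell, among them Abca1 (-2.33) and Apoe (-2.26), and the macrophage markers described below fell in the same arrays. The part of other cells in this was not tested.

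Most genes that build ribosomes rose, while genes of the ribosome's own cytosolic proteins, bar 1, were not called. Of 60 ribosome assembly genes 53 rose and 0 fell, with a median of 0.63 and single changes from 0.14 (Imp3, not called) to 1.34 (Rrp1b). Of 44 cytosolic ribosomal protein genes 1 rose (Rps27l, 0.61) and 0 fell, with a median of -0.03 and 2 lower at an unadjusted p under 0.05. Ncl (nucleolin) was 14.06, 13.94 and 14.04 at T0 and 14.83, 14.68 and 14.84 at T6, a rise of 0.77 (SE 0.08, adjusted p = 0.00013), and Nolc1, a nucleolar chaperone of small ribonucleoproteins, was 10.98, 11.04 and 11.29 at T0 and 12.27, 12.28 and 12.18 at T6, a rise of 1.14 (SE 0.14, adjusted p = 0.0003). Noc3l, which acts in assembly of the large subunit, was 9.23, 9.23 and 9.44 at T0 and 10.50, 10.21 and 10.22 at T6 and rose by 1.01. These are modest steps, under or near 2-fold, but with small spread on all 6 arrays. Of 76 mitochondrial ribosomal protein genes 21 rose and 2 fell (median 0.20), with Mrps6 at 1.48. For mitochondrial ribosomal proteins the count of rises was 13 with probe sets averaged per gene.

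Promoters of assembly genes held other motifs more often than those of the strongly induced genes. Those of Nolc1 and Noc3l are shown because each holds CCGGAAG, in capitals, near the start: the window of Nolc1 is chr19:46075597-46075896 (plus strand), with the match 14 bases before the start, and that of Noc3l is chr19:38819188-38819487 (minus strand), with the match 25 bases after it and on the opposite strand. They hold 18 and 25 CG dinucleotides, against 11 in each of the Tnf and Irf4 windows and 2 in the Il2 window printed above. Of the 51 windows of assembly genes 39.2% held this motif (17.3% over all genes tested), 21.6% held CACGTG (9.94%) and 5.88% held TATAAA (7.92%).
Nolc1: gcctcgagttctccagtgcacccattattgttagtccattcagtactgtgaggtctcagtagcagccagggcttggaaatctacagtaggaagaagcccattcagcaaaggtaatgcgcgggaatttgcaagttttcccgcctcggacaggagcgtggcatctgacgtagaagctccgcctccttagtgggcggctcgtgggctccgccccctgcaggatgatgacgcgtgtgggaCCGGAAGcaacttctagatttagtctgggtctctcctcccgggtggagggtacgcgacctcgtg
Noc3l: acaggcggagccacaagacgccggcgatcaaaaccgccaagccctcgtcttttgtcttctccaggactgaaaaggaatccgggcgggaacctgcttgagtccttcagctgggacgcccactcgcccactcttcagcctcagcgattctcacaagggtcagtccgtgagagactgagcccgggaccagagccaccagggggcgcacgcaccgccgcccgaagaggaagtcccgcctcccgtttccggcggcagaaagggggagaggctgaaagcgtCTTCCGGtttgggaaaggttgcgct

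Of 32 aminoacyl-tRNA synthetase genes, whose products charge tRNAs, 15 rose and 2 fell (median 0.28). A split of this list by gene symbol, which is not 1 of the 70 gene lists, gave unlike counts and was not tested. Of 16 genes whose symbols do not end in 2, most of which serve the cytosol, 14 rose and 0 fell (median 0.71), and of 16 mitochondrial genes whose symbols end in 2, 1 rose and 2 fell (median -0.14). Wars (tryptophanyl) was 9.52, 9.47 and 9.45 at T0 and 11.07, 11.65 and 11.49 at T6, a rise of 1.92 (SE 0.15, adjusted p = 1.9e-05). Tars rose by 1.07 and Iars by 1.01, while Ears2 fell by 0.83 and Cars2 fell by 0.55 (called in 21 of 22 alternatives). Of 35 initiation factor genes 16 rose and 1 fell, with Eif1a at 0.91. Of 23 RNA polymerase subunit genes 9 rose and 1 fell, with Polr1d at 0.52. For RNA polymerase subunits the count of rises was 5 with probe sets averaged per gene or without WT T0 replicate 1 or WT T6 replicate 1 or 2.

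Protein folding and turnover genes rose by small steps. Of 46 proteasome genes 31 rose and 0 fell (median 0.42). Psmd1, a scaffold of the regulatory cap, was 11.37, 11.31 and 11.48 at T0 and 12.28, 12.17 and 12.19 at T6, a rise of 0.83 (SE 0.10, adjusted p = 0.00038), and Psma7 rose by 0.78. None of the 3 immunoproteasome genes was called, with Psmb8 at -0.02, Psmb9 at 0.29 and Psmb10 at -0.15. Of 22 chaperone genes 13 rose and 0 fell (median 0.42), with Cct3, a subunit of the chaperonin that folds actin and tubulin, at 0.74 and Stip1 at 0.75. For chaperones the count of rises was 7 with probe sets averaged per gene. Hspa1b, an inducible heat shock gene, was 7.10, 13.53 and 13.34 at T0 and 9.09, 8.44 and 7.93 at T6. It was high on T0 replicates 2 and 3 and low on T0 replicate 1, and its change of -2.83 was not called. Without WT T0 replicate 1 it was called lower (-4.94, adjusted p = 0.0129 in limma), as 1 of 3 falls in the list, and without WT T0 replicate 2 or 3 it stood at -1.73 or -1.83. Of 24 genes of ER folding 7 rose and 3 fell, with Pdia6 at 0.90 and Dnajb9 at -1.69. For ER folding the count of rises was 13 with median centring. Of 14 integrated stress response genes, Chac1 rose by 1.31 and Ppp1r15a, a phosphatase subunit gene, fell by 2.38. Atf4, the main transcription factor of this response, stood at 0.26, not called.

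Mitochondrial lists had unlike shares of calls, some of them near those over all genes tested (11.3% higher and 13.8% lower). Of 23 import genes 8 rose (34.8%) and 0 fell (median 0.17), with Timm10 at 1.15. Of 75 respiratory chain and ATP synthase genes 6 rose (8.0%) and 3 fell (4.0%), with a median of 0.07, and 66 were not called. For the respiratory chain the count of rises was 12 with median centring, and 11 with the filter at percentile 60 or with eBayes trend and robust settings. Of 39 carrier genes 6 rose (15.4%) and 9 fell (23.1%). Slc25a33, a pyrimidine nucleotide carrier, rose by 1.45. For carriers the count of rises was 3 without WT T0 replicate 2. For the same list the count of falls was 5 with median centring or without WT T6 replicate 1. In nuclear transport 14 of 46 genes rose (30.4%) and 3 fell (6.52%), with Ipo4 at 1.03. Of 29 SR and hnRNP splicing genes 3 rose and 3 fell (10.3% each).

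**Figure D3:**
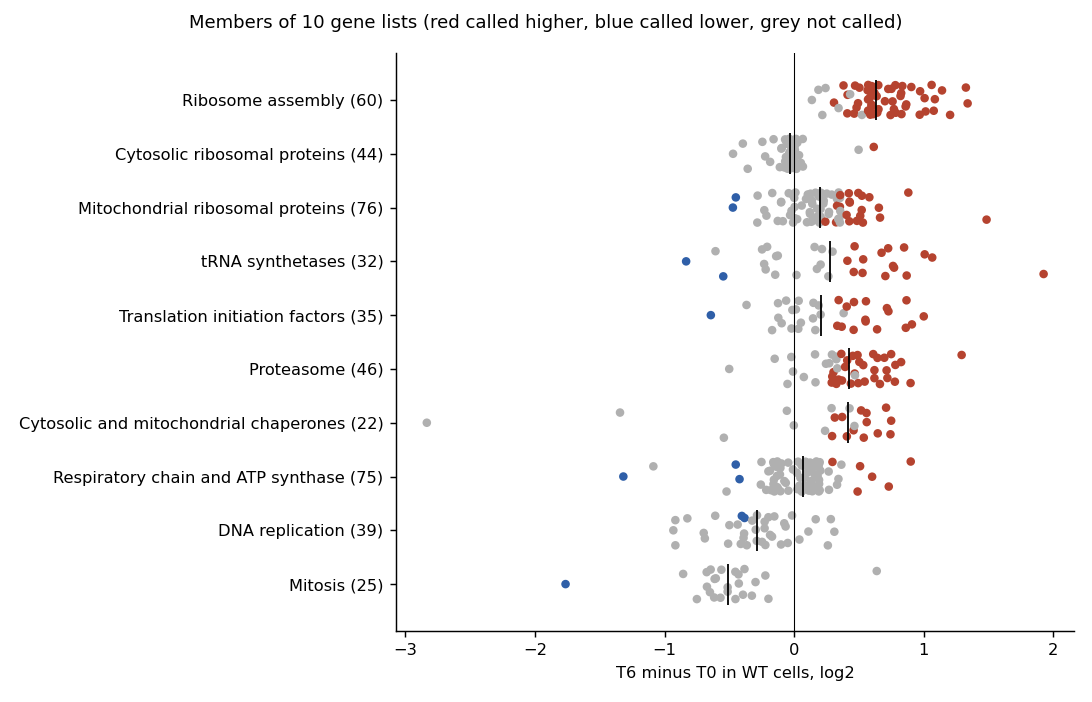
Change on activation (T6 minus T0 in WT cells, log2, horizontal axis) of each tested member of 10 gene lists, 1 point per gene, with the list median as a bar and the number tested in brackets. Ribosome assembly has a median of 0.63 and cytosolic ribosomal proteins one of -0.03.

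No replication or division gene was called higher, save 1 mitosis gene with the replicate number as a block. Of 39 DNA replication genes 0 rose and 2 fell by limma's test (1 had an unadjusted p under 0.05 on the higher side), and the falls numbered 6 with the replicate block and 0 with median centring, with no filter on low values and without any 1 of the 6 WT arrays or KO T0 replicate 1 or 2. Of 25 mitosis genes 0 rose and 1 fell (Kif23, -1.76, with 0 at an unadjusted p under 0.05 on the higher side). List medians were -0.29 and -0.51, and ran from -0.41 to -0.17 and from -0.83 to -0.29 over the alternatives. Pcna, the replication clamp, was 14.03, 13.88 and 14.03 at T0 and 14.16, 14.23 and 14.33 at T6, and Mki67, a marker of cycling cells, was 10.65, 11.29 and 11.79 at T0 and 10.52, 11.55 and 10.52 at T6. Neither was called (0.26 and -0.38), the first with states that lay close but did not overlap and the second with overlapping states. Of 19 G1 genes 1 rose and 4 fell. The rise was that of Cdkn1a, which encodes the inhibitor p21, at 7.31, 7.17 and 7.88 at T0 and 9.99, 9.67 and 9.31 at T6, by 2.21 (SE 0.20, adjusted p = 5.5e-05). Ccnd1 fell by 1.44 and Ccnd2, the cyclin D of lymphocytes, stood at 0.25, not called. Rbl2, a pocket protein of resting cells, fell by 0.58.

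**Figure D4:**
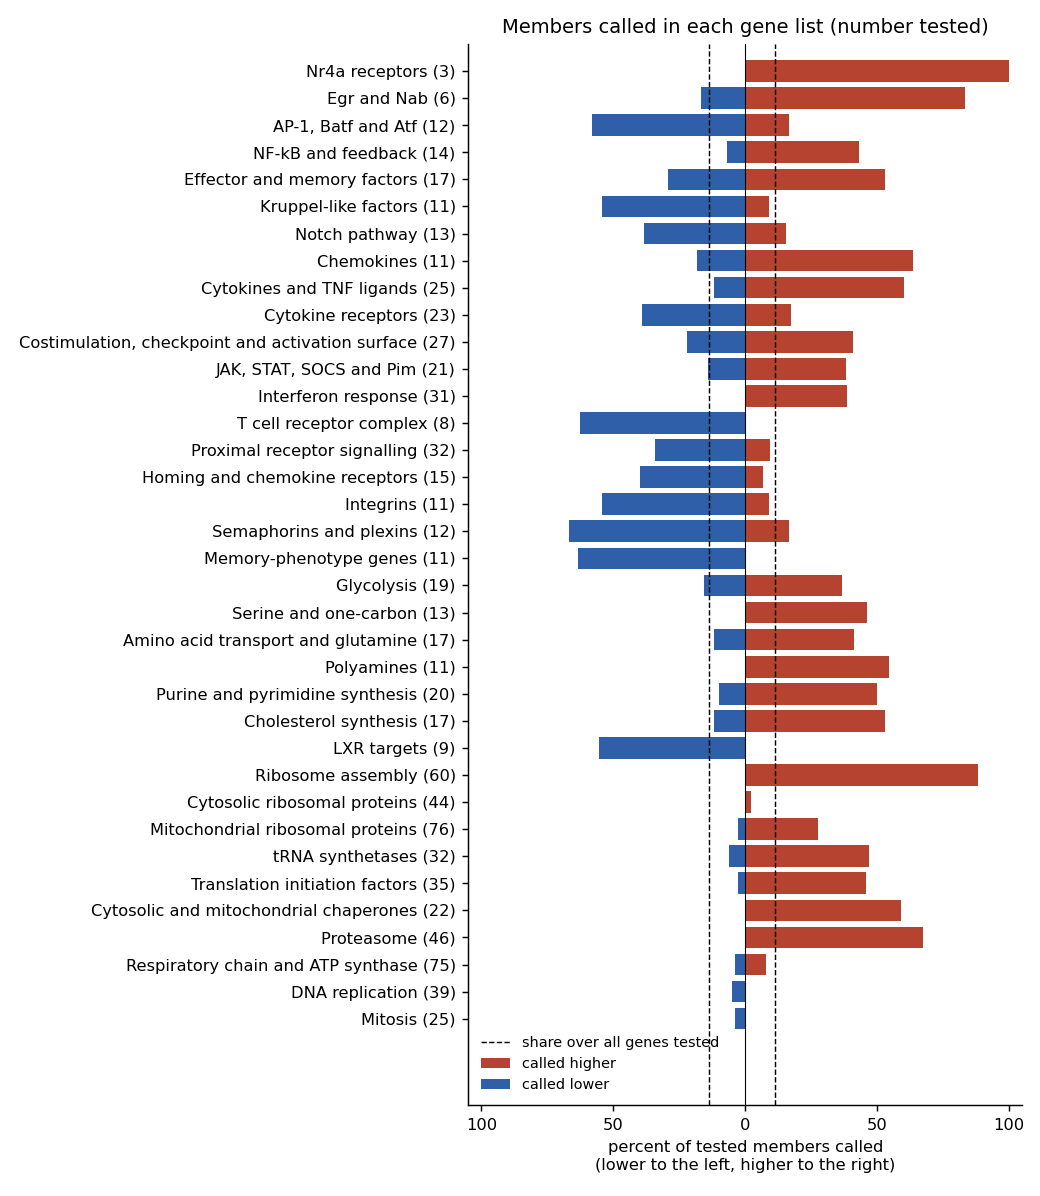
Percent of the tested members of 36 gene lists that were called higher (red, to the right) or lower (blue, to the left) at T6 in WT cells, with the number tested in brackets. Dashed lines mark the shares over all 13158 genes, 11.3% higher and 13.8% lower.

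Smaller groups follow, some with shares near the 11.3% higher and 13.8% lower over all genes tested. Of 14 mRNA decay regulators 2 rose and 4 fell: Zc3h12d, a regnase, rose by 1.30 and Zfp36 and Zfp36l2, which mark AU-rich transcripts for decay, fell (-0.75 and -0.95, the latter called in 21 of 22 alternatives). For decay regulators the count of falls was 2 with median centring, with probe sets averaged per gene, in a fit over the 6 WT arrays or without WT T0 replicate 1 or 3 or WT T6 replicate 1 or 2. Of 21 DNA and histone modifiers 3 rose and 3 fell (14.3% each). Among them the histone demethylase gene Kdm6b was at 1.67 (-0.10 to 1.75 on its other probe sets) and Tet1, which oxidises methylated cytosine, at -2.18. Of 21 lysosome and autophagy genes 2 rose and 6 fell, with Grn at -1.55 and Ctsb at -1.35. Of 8 Gimap GTPases 2 fell (Gimap7 fell by 1.08 and Gimap6 fell by 0.89), and of 12 circadian genes 1 rose (Cry1, 0.90, called in 21 of 22 alternatives) and 2 fell. Some genes crossed from at or under percentile 40 on all 3 arrays of a state to above percentile 60 on all 3 of the other. There were 7 such rises, Il2, Il3, Il4, Npas4, Crabp2, Spin4 and Utf1, and 7 such falls, C1qc, Sash1, Rap1gap2, Clec4a3, Emid1, Slc45a3 and Marchf1. Npas4, an activity-dependent factor first known from neurons, was 4.19, 5.49 and 5.07 at T0 and 8.67, 8.70 and 9.39 at T6.

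Falls of genes outside the marker lists, named for their size or small p, were in genes of varied function. Sash1, which crossed as described above, fell by 4.31, and Rap1gap2 fell by 3.69. Igfbp4, a binding protein of insulin-like growth factors, was 13.50, 13.25 and 13.45 at T0 and 7.85, 8.76 and 8.39 at T6 and fell by 5.06 (SE 0.22, adjusted p = 5.2e-07). Ampd1, AMP deaminase, was 9.50, 9.05 and 9.27 at T0 and 4.83, 4.46 and 6.06 at T6 and fell by 4.16. Ramp1, a partner of the receptor for calcitonin gene-related peptide, was 11.26, 10.93 and 11.14 at T0 and 8.17, 8.25 and 8.07 at T6 and fell by 2.95 (SE 0.12, adjusted p = 4.4e-07). The states lay far apart for all 3. Hpgd, which degrades prostaglandins, fell by 4.12 (-1.64 on its other probe set), and Rab37 fell by 1.93.

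The host transcript of miR-155, Mir155hg, picked with its values in view and outside the rule for named genes, was 6.77, 6.24 and 5.93 at T0 and 10.25, 10.20 and 10.05 at T6. It rose by 3.86 (SE 0.25, adjusted p = 6.2e-06). The mature miRNA of its 5′ arm is shown with the seed, bases 2 to 8, in capitals, as RefSeq gives it for assembly GRCm38.p6 at chr16:84714143-84714165 (plus strand). The arrays measured the host transcript and not the miRNA.
mmu-miR-155-5p: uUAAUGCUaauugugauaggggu

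Markers of other cells were measured beside these results. Of 16 macrophage markers tested 15 fell and 0 rose (median -3.10), and the sum of the 17 on the array was 14.96, 14.79 and 14.52 at T0 and 11.25, 11.80 and 10.87 at T6 (log2). C1qb, a complement subunit made by tissue macrophages, was 11.10, 11.19 and 10.60 at T0 and 6.50, 6.39 and 6.05 at T6, and Csf1r, the receptor of their growth factor, was 12.68, 12.50 and 12.20 at T0 and 7.87, 9.13 and 7.33 at T6. Marco lay under percentile 40 on all 6 arrays. Of 6 MHC class II genes 4 fell (sum 14.65, 14.41 and 13.83 at T0 and 13.56, 12.59 and 12.45 at T6), of 5 dendritic cell markers 3 fell (sum 9.22 to 9.82 and 8.58 to 8.77), and of 12 B cell markers 1 fell (sum 10.69 to 11.67 and 9.81 to 10.86). None of 6 neutrophil, 3 CD4 T cell and 4 erythroid markers was called, 1 of 4 platelet markers fell (Ppbp, called in 5 of 21 alternatives), and 0 of the 2 NK cell markers on the array passed the filter. Erythroid markers summed to 12.05, 12.86 and 13.34 at T0 and 11.09, 12.35 and 11.31 at T6, with overlapping states (exact permutation p = 0.2). The sum of the T cell identity markers was 16.61 to 16.88 at T0 and 16.09 to 16.27 at T6. These markers share members with the receptor complex list above and gave the same counts and median, so they are not a separate result. The sums of macrophage, class II, dendritic and T cell identity markers did not overlap between the states (exact permutation p = 0.1 each, the smallest possible). The part of other cells in falls such as those of lysosome genes, Apoe and Vim was not tested.

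**Figure D5:**
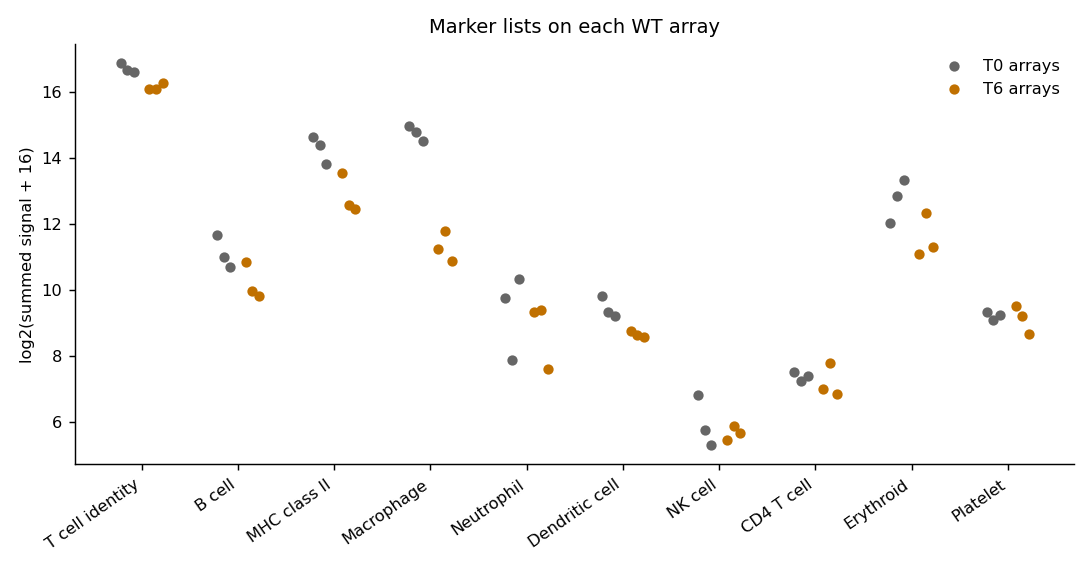
Log2 of the summed signal of each marker list (vertical axis) on the 3 T0 arrays (grey) and 3 T6 arrays (orange) of WT cells. Macrophage markers lie between 14.52 and 14.96 at T0 and between 10.87 and 11.80 at T6.

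The 6 arrays of Scap-deficient cells, which the tests above used for the estimate of spread, the filter on low signal and the choice of probe set, gave the same direction for 1474 of the 1492 rises (98.8%) and 1750 of the 1810 falls (96.7%). Over genes not called in WT this share was 72.3%. In those cells 1031 of the rises and 1110 of the falls were called the same way, where 10.4% of all genes were called higher and 10.4% lower (20.9% in either direction), and 1 fall was called higher there (4930483J18Rik, a fall called in 16 of 21 alternatives, which lies outside the rule for named genes). Side by side, Ccl3 rose by 6.77 in WT and 6.11 in KO, Irf4 by 4.45 and 4.21, Ncl by 0.77 and 0.70 and Gbp2 by 3.15 and 3.19, and changes of -2.03 and -1.97 were found for Fos, -1.25 and -0.91 for Foxo1 and -2.31 and -1.95 for Sit1. The test of the difference between the changes in WT and KO (the interaction in the same limma fit) called 0 genes (0.0%), with 604 genes at an unadjusted p under 0.05, fewer than the 658 that chance would give. The smallest p was that of Wscd2, with a change of -1.79 in WT and -0.64 in KO (interaction adjusted p = 0.522). A difference that was not called does not show that the genotypes respond alike.

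Genes with several probe sets gave a further view. Of the 3302 genes that changed 1814 had at least 2 probe sets that passed the filter. All of a gene's probe sets had the same sign for 1426 (78.6%) and were called the same way for 522, and 45 genes had a probe set called the other way. The tested probe set is the one with the highest mean level, and its value can be the larger one: with all probe sets of a gene averaged instead, the change was 3.09 for Irf4, 2.09 for Nr4a3, 2.23 for Nr4a2, 1.36 for Egr3, 3.03 for Fosl1, 1.80 for Fosl2 and 3.67 for Rgs16. Of other genes described above it was 3.62 for Sema7a, 2.88 for Tnfrsf9, 3.10 for Bcat1, 1.26 for Lif, 1.40 for Cyp51, 0.59 for Fdps and 0.99 for Slc7a1. Among falls it was -2.74 for Dtx1, -2.88 for Hpgd, -1.55 for Cd244a, -0.99 for Tgfbr3, -0.94 for Ifngr2, -2.28 for Ramp1, -1.36 for Abca1, -3.82 for C1qb and -3.55 for Csf1r.

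The constant of 16 added to each signal set the size of changes that start or end near background, and not their direction. With 1 and with 64 in its place, the change was 5.49 and 3.25 for Fosl1, 5.27 and 2.75 for Npas4, 5.24 and 2.28 for Crabp2, 4.26 and 2.43 for Spin4 and 3.74 and 2.20 for Utf1. It was -5.15 and -2.97 for Ampd1, -5.97 and -3.93 for C1qc, -5.36 and -3.04 for Sash1 and -2.88 and -1.40 for Cd244a. With 64 it was 3.56 for Il2ra, 3.69 for Ccl1, 2.27 for Csf2, 1.51 for Lif, 3.22 for Mir155hg, -3.31 for Hpgd and -4.0 for C1qb.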

How the data were processed

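Expression was measured on 12 Affymetrix arrays, 3 for each of WT and KO cells at T0 and T6. The deposited values are linear signal intensities, 1 for each probe set. The authors made them with GCOS, whose version is not stated, per the submitters' processing notes. The mean over percentiles 2 to 98 was 500.003 on every array, so the deposited intensity values share a scale. Background removal and probe summary are not given in the sources used here, and the number of arrays limits the precision.

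Of 45101 probe sets 34945 had 1 gene symbol in GEO's platform annotation, 932 had several, 9160 had none and 64 were controls. Through gene IDs, 34741 were matched to RefSeq. The deposited intensities were turned into log2(signal + 16). Where a gene had several probe sets, that of the highest mean level was tested. Genes above percentile 40 of the array on at least 3 of 12 arrays were kept, 13158 in all. A coefficient per group was fitted over the 12 arrays with limma 3.58.1 (R 4.3.3, lmFit and eBayes), and p-values were adjusted by Benjamini-Hochberg over all genes tested, with 0.05 as the threshold. Single sums were compared by exact permutation tests (scipy 1.17.1).

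The text names up to 15 rises and 15 falls of largest size, up to 10 each way of smallest p, up to 10 each way that crossed from at or under percentile 40 to above percentile 60, members of 70 gene lists, Scap and up to 5 genes of smallest interaction p. Of these, those that help to describe a group are given. The genes and lists were chosen with earlier results of these data known, so the lists are described by counts and medians and were not tested as sets. On simulated data with 200 changed genes among 13158, the fit for T6 against T0 in WT recovered 23.1% of changes of 0.5, 59.7% of 1 and 83.6% of 2 on the log2 scale, with 5 false calls. In the data 3302 genes were called. The adjusted p depends on how many genes change, so these shares do not give the recovery of the comparison above. Alternatives were other added constants (1 and 64), quantile normalization, median centring, no filter, a filter at percentile 60, probe sets averaged per gene, each probe set on its own, a fit over the 6 WT arrays, a replicate block, trend and robust settings, and leaving out each array. Promoter and miRNA sequences are those of RefSeq for GRCm38.p6. List members with no tested probe set of 1 symbol, such as Tcf7 and Lck, are not analysed here.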

Additional observations from a re-analysis of the deposited data

Results flagged for a closer look

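Probe sets without a gene symbol lie outside the comparisons above. Of 4861 such probe sets that passed the filter, 675 changed on activation in WT cells (13.9%), 301 higher and 374 lower, by the same limma fit. Probe set 1417185_at rose by 3.19. Probe set 1444588_at was 6.03, 5.88 and 5.63 at T0 and 9.26, 8.84 and 8.77 at T6, a rise of 3.11. Probe set 1448485_at fell by 4.06 and 1436230_at fell by 3.59. They are unnamed here.

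1 gene was called lower in WT and higher in KO cells, with no overlap between the states in either. 4930483J18Rik was 5.61, 5.86 and 5.54 at T0 and 4.55, 4.93 and 4.45 at T6 in WT cells and 4.62, 5.83 and 4.77 at T0 and 5.90, 6.14 and 5.92 at T6 in KO cells. Its change was -1.03 in WT and 0.91 in KO (adjusted p = 0.022 and 0.042 in limma). The difference of -1.94 was not called (interaction adjusted p = 0.915 in limma). The levels lie near percentile 40 of the arrays.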

How the results depend on the processing

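The WT comparison called 1051 to 1568 genes higher and 1332 to 1958 lower over the fits that left out 1 array, against 1492 and 1810 with all arrays. With each probe set on its own, 2414 of 24543 were higher and 2995 lower, and 593 and 1070 of them by at least 2-fold, since more features were tested. Median centring gave 1141 lower genes. All other alternatives left these counts within 1.5 times, with 254 to 461 rises and 402 to 672 falls of at least 2-fold among settings that kept 1 value per gene and all arrays. The interaction called 0 to 1 genes over the fits that left out 1 array, with 1 without WT T6 replicate 1 and 1 without KO T0 replicate 2, and 0 in the others.

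Of 241 genes named above that changed, 219 kept their call under each of 22 alternatives. Of 6329 recomputed values of named genes 6205 stayed on their side of the threshold, 97 lost the call, 26 gained one and 1 value of a called gene changed sign (Tap1, -0.0026 with its probe sets averaged, a higher and a lower one). The gained calls were those of 10 genes, Atf4, Cd3d, Cd3e, Hspa1b, Lat, Mx1, Scap, Stat5b, Tnfaip3 and Zap70. Of the 6205 values, 57 changed sign, in 20 genes that were not called. Median centring took the call from 10 genes, leaving out WT T0 replicate 1 from 13 and WT T6 replicate 3 from 12. Of 82 list counts under 4, 46 moved by over 1.5 times and 22 by more than 1 gene, to 6 at most. The median of the cytokine and TNF ligand list ran from 0.94 to 2.31, and that of cholesterol synthesis from 0.45 to 0.82. The cause was not tested.

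With the replicate number as a block, 1417 genes were higher and 1880 lower, and 2852 of these 3297 were called the same way without it. Deviations of same-numbered WT T0 and T6 arrays correlated at 0.23, -0.06 and -0.11 for replicates 1, 2 and 3. Only replicate 1 thus correlated above 0 with its own number, so the numbers do not pair all of the WT arrays. KO arrays were not compared in this way. T0 replicate 2 correlated with T6 replicate 3 at 0.20 and T0 replicate 3 with T6 replicate 2 at 0.23, and the other pairs of unlike number lay below 0. No block was fitted on these pairs, which were read from the data and are not in the labels. Signal over background limits low genes: with the filter off, 1239 genes were higher and 1534 lower. A gene that was not called may still have changed, above all by less than 2-fold.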

Other observations

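Some genes were high or low by array and not by state, in values chosen after they were seen: in each state 1 WT array stood at least 2.5 (log2) from the other 2, and none of these genes was called. Trim12a, a gene of a restriction factor family, was 11.14, 4.13 and 10.10 at T0 and 10.82, 10.18 and 4.13 at T6. Trim30d and Trim34a of the same family were 10.16, 5.56 and 9.16 at T0 and 9.61, 9.93 and 4.54 at T6 and 11.28, 6.59 and 10.34 at T0 and 11.35, 11.23 and 6.15 at T6. For all 3, T0 replicate 2 and T6 replicate 3 were the low arrays, and Slc15a2, a peptide transporter gene, was low on the same arrays (10.20, 6.62 and 10.62 at T0 and 10.35, 11.31 and 4.23 at T6), while Cpne4 and Klra16 were high there. Gdpd3 was 6.82, 12.82 and 12.15 at T0 and 7.35, 12.63 and 13.32 at T6, low on T0 replicate 1 and T6 replicate 1. Ccnb1ip1 was 9.0, 9.07 and 5.72 at T0 and 10.03, 5.72 and 8.79 at T6, low on T0 replicate 3 and T6 replicate 2. Hspa1b, described above, was low on T0 replicate 1 alone among the T0 arrays. The pairs of arrays on which these genes stood apart in both states are those whose deviations over all genes correlated, at 0.23 for T0 replicate 1 with T6 replicate 1, 0.20 for T0 replicate 2 with T6 replicate 3 and 0.23 for T0 replicate 3 with T6 replicate 2. Which arrays share a mouse is not given in the labels, and no explanation was tested.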
